A study of Mus musculus with 8 samples.

Results

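The Hox genes are the 39 members of the 4 mouse homeobox clusters, and all 39 had a probe on the microarrays of this study. A member was any gene whose name in the array files was Hox, a cluster letter from a to d and a number, and each was read from its brightest probe over the 8 arrays. HoxA had 11 members, HoxB 10, HoxC 9 and HoxD 9, with 44 probes among 55681 non-control probes. Of the 39 genes, 38 passed the filter on dim probes (well above background on 4 or more arrays) and entered the tests, among 40227 features (21794 named genes, and single probes with no name). A feature stands below for 1 named gene or 1 such probe.

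The arrays measured RNA of cells enriched with magnetic beads for CD31, a surface protein of endothelium that is also found on platelets and a range of leukocytes. Single C57Bl/6J embryos at stage E12.5 were used, and the carcasses had been freed of liver and brain before dissociation. There were 4 embryos homozygous for the targeted Gata2 +9.5 mutation, which disrupts an enhancer in an intron of this gene for a blood stem cell transcription factor, and 4 wild type littermates, all from matings of heterozygotes. Samples 1 and 2 of each genotype came from litter 1 and samples 3 and 4 from litter 2, and each sample is a separate embryo. The mutation is in the germline and so present in every cell of a mutant embryo, not in the CD31+ cells alone.

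Hox genes encode transcription factors that bind DNA through the homeodomain, and they give cells a position along the head-to-tail axis. Within a cluster, genes with low paralogue numbers are switched on early and near the hindbrain, and those with high numbers late and near the tail, limb tips and urogenital tract. Endothelial cells keep part of the Hox code of the body region they lie in, and several members, such as Hoxa9 and Hoxb4, are known for their part in blood stem cells. By the coordinates in the array files, on genome build mm9, the HoxA probes lay on chromosome 6, HoxB on chromosome 11, HoxC on chromosome 15 and HoxD on chromosome 2.

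Each probe is a stretch of 60 bases, and a few of the Hox probes held the coding letters of a motif of Hox proteins. Neither motif was confined to Hox probes. The probes of Hoxc11 and Hoxa6 are shown because each holds such a motif and because the signal of each is taken up below: Hoxc11 for its litter difference and Hoxa6 for its pattern over the arrays. The capitals mark the core of the recognition helix of the homeodomain, the part that lies in the groove of the DNA, in Hoxc11, and the motif through which Hox proteins hold the cofactor Pbx in Hoxa6.
Hoxc11: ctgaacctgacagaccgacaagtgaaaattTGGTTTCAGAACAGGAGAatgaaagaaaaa
Hoxa6: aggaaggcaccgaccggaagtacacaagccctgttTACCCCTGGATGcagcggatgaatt
They lie at chr15:102787022-102787081 (plus strand) and chr6:52158194-52158253 (minus strand), and are written 5′ to 3′ on the strand of the probe. The helix core was found in 7 of the 55681 probes (0.0126%), of which 2 were Hox probes, and the Pbx-binding motif in 2 probes (0.00359%), of which 1 was a Hox probe. The search read the 3 frames of the probe's own strand that were open throughout, and the 2 motifs did not overlap.

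The arrays themselves differed in ways that touch every result below. The share of non-control spots well above background was 74.9% to 92.0%, and arrays had 75th percentiles between 996 and 2481 intensity units. A first principal component was taken over the features with no missing value, leaving out the Hox genes, and held 58.9% of the variance. On it wild type 2, wild type 3 and mutant 4 had the 3 highest scores (99.8, 158.5 and 124.2). Wild type 4 followed at 23.2, between them and the other 4 arrays (-128.0 to -60.0), so the 5 remaining arrays were not 1 tight group. Gata2 checked the labels: its log2 level was 1.49 ± 0.46 (SD, n = 4) in wild type and -0.93 ± 0.53 in mutant embryos, with no overlap, a difference of -2.42 (SE 0.39, adjusted p = 0.0858 by limma). The 13 pan-endothelial markers were all well above background on at least 4 arrays, and Cdh5 and Kdr lay at mean log2 levels of 4.76 and 5.33. The level of a marker list is given below as the median of its genes' log2 levels on an array. For 12 leukocyte and platelet markers it was 2.06 to 2.84 in wild type and -0.71 to 0.50 in mutant arrays, 2 of the 12 (Mpo and Gp9) were called lower, and its part in any Hox difference was not tested. In bulk RNA, fewer cells of a type and less RNA per cell cannot be told apart. Mesenchyme markers were present as well: the level of 10 of them was 0.96 to 2.81 in wild type and 1.59 to 2.64 in mutant arrays. The 2 brightest, Col1a2 and Col3a1, had mean log2 levels of 6.81 and 5.08.

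Most Hox genes were well above background in this fraction, as were most probes of the array: 48110 of all 55681 non-control probes were kept for the tests. Which of its cell types carried the Hox RNA was not tested. Levels are log2 signals relative to the array's 75th percentile, so 0 is a signal at that percentile. Well above background on all 8 arrays were 34 of the 39 genes, among them all 11 of HoxA, 7 of 10 in HoxB, 8 of 9 in HoxC and 8 of 9 in HoxD. Each array had between 36 and 38 Hox genes above background, where 74.9% to 92.0% of all non-control spots were. Saturated Hox spots numbered 0. Hoxb1, which patterns a single segment of the hindbrain, was not well above background on any of the 8 arrays, and its values were -6.60, -6.81, -6.38 and -6.0 in wild type and -6.47, -6.01, -6.49 and -5.05 in mutant arrays. Hoxb13, a gene of the tail end of the trunk, was above background on 6 arrays and Hoxd12, a gene of the digits, on 7. Hoxb8 and Hoxc12 had 7 usable arrays, since the spot of mutant 4 carried an outlier flag for each and was left out.

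**Figure D1:**
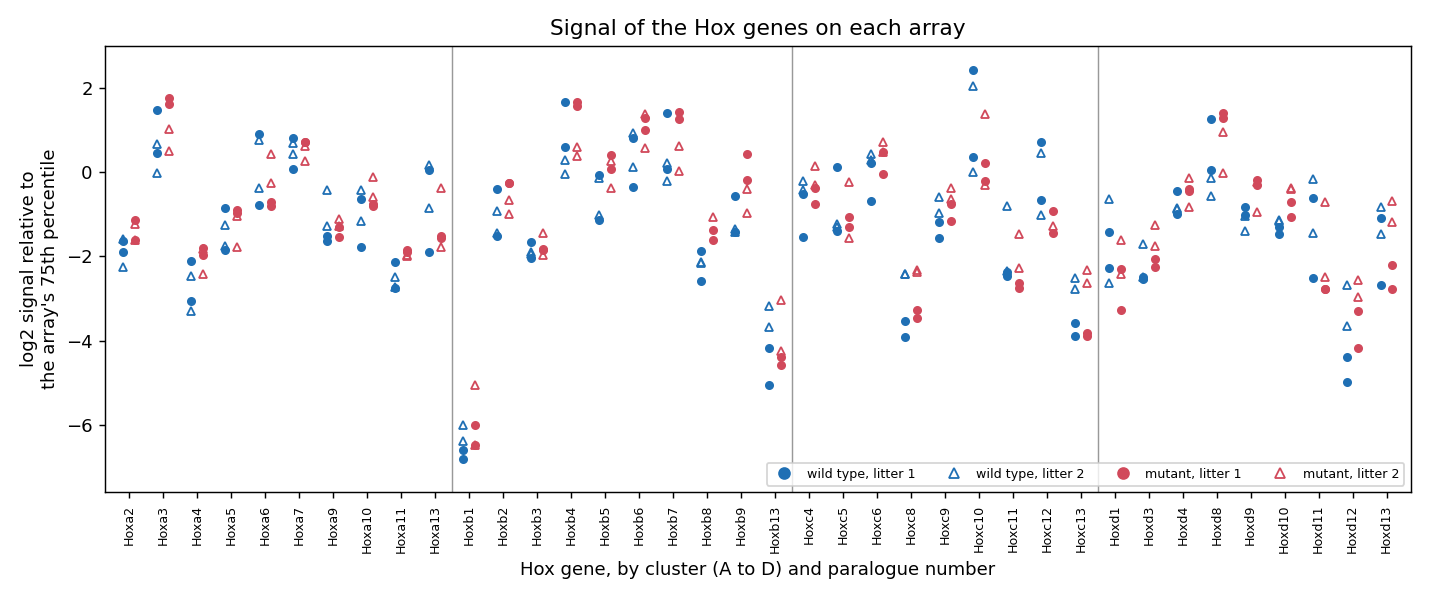
Signal of the Hox genes on each array, as log2 relative to the array's 75th percentile, with wild type in blue, mutants in red, litter 1 as filled circles and litter 2 as open triangles. Grey lines separate HoxA, HoxB, HoxC and HoxD. Hoxb1 lies between -6.81 and -5.05, and the genotypes overlap for all tested genes but Hoxa11, Hoxb8 and Hoxd10. Heights of different genes are signals of different probes and are not amounts of RNA to be set against each other.

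Whether the embryos that lacked the enhancer differed in Hox expression was asked of each gene with limma over all features. Of the 38 Hox genes tested, 0 were called (adjusted p under 0.05), 2 had an unadjusted p under 0.05, and the lowest adjusted p was 0.717, a value that Benjamini-Hochberg adjustment gave to many genes alike. Of all 40227 features, 18 were called, all lower in the mutants (0.0447%), and 1227 (3.05%) had an unadjusted p under 0.05. The differences of the 39 genes ran from -1.09 (Hoxc12) to 0.91 (Hoxb9), with 28 above and 11 below 0 and a median of 0.35. Over all features 52.4% lay above 0, and the median was 0.05. Median scaling moved both, to 0.61 for the Hox genes and 0.32 for all features. The fit's standard errors for Hox genes were 0.31 to 0.61, and the 95% interval, before adjustment, reached on average (median) 0.86 to either side. Changes of less than about that size could not be told from none with 4 embryos a group. After adjustment over all features larger changes could be missed too: Gata2, at -2.42, was not called (adjusted p = 0.0858 by limma). With the litter as a replicate block, which pairs mutants and wild types of the same litter, the calls over all features went to 0 and those among Hox genes stayed at 0. With limma's array weights the count was 20 of 38 Hox genes, beside 19253 of all features; the weights ran from 0.25 (mutant 4) to 4.04 (mutant 1).

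The genotype difference varied between clusters and positions, with no course that all clusters shared. In HoxB 9 of 10 genes lay above 0 (median 0.49), in HoxA 8 of 11 (0.40), in HoxD 6 of 9 (0.47) and in HoxC 5 of 9 (0.02). By position, 7 of 8 anterior genes (paralogue numbers 1 to 3) lay above 0 with a median of 0.45, and so did 13 of 15 central genes (4 to 8) with a median of 0.35. Of 16 posterior genes (9 to 13) 8 lay above 0, and the median was -0.01. That count rests on the brightest probes. Second probes gave 0.52 in place of -0.10 for Hoxa9 and 0.31 in place of -1.01 for Hoxd11, while that of Hoxa13 stayed below 0 (-0.34). From anterior to posterior, the medians were 0.45, 0.165 and 0.167 in HoxA and 0.44, 0.69 and 0.43 in HoxB. In HoxC they were 0.28 (central) and -0.28 (posterior), while in HoxD they rose from -0.09 to 0.54 and 0.63. Spearman's rho between paralogue number and genotype difference was -0.26 over the 38 tested genes. These counts and medians describe the values, and no gene in them passed the test. Brighter features also lay higher in the mutants in general: the median was 0.38 over the 10888 features with a mean log2 level above 0, -0.11 between -2 and 0, and -0.26 below -2. The Hox medians in the same bins were 0.42 (9 genes), 0.34 (20 genes) and 0.22 (9 genes).

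**Figure D2:**
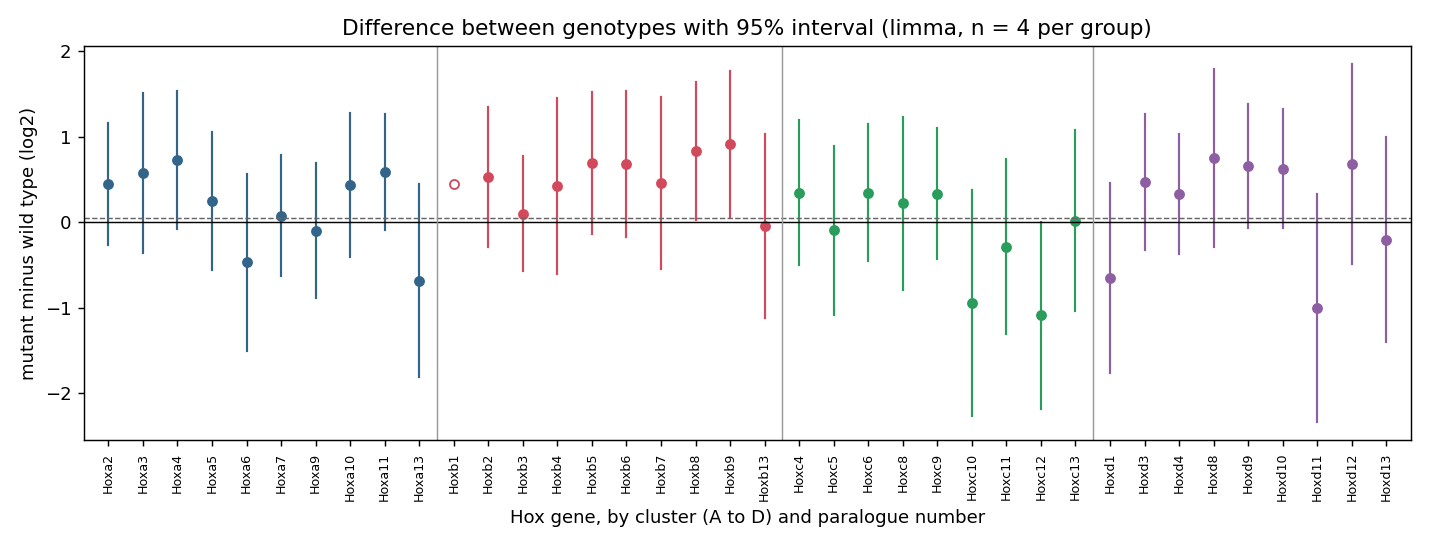
Difference in log2 signal, mutant minus wild type, of the Hox genes with the 95% interval of the limma fit (n = 4 embryos a group; 3 mutants for Hoxb8 and Hoxc12). The dashed line is the median of all features, 0.05, and the open circle is Hoxb1, which was not tested. Most points of HoxB lie above 0, and the intervals of Hoxb8 and Hoxb9 alone leave out 0, before adjustment over all features.

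In HoxA, Hoxa3 is needed for the thymus, the parathyroid and the neural crest of the pharyngeal arches. Its levels were 1.47, 0.45, -0.02 and 0.67 in wild type 1 to 4 and 1.61, 1.75, 1.03 and 0.50 in mutant 1 to 4. The groups overlapped, with wild type 1 above mutants 3 and 4, and the difference was 0.58 (SE 0.43, adjusted p = 0.717 by limma). Hoxa4, which patterns the neck vertebrae, had the largest positive difference of the cluster. It lay at -2.11, -3.06, -3.29 and -2.47 in wild type and -1.79, -1.98, -1.83 and -2.42 in mutant arrays, so that 1 wild type value, -2.11, stood among the mutant ones, and the difference was 0.73 (SE 0.37, adjusted p = 0.717 by limma). Hoxa13, needed for the digits, the urogenital tract and the umbilical arteries, had the largest negative one. Its levels were -1.90, 0.06, 0.18 and -0.85 in wild type and -1.57, -1.51, -1.78 and -0.38 in mutants, and its difference of -0.68 (SE 0.51, adjusted p = 0.717 by limma) was -0.24 without wild type 2, wild type 3 and mutant 4, the 3 arrays on which it was highest. Hoxa11, which shapes the forearm and the kidney together with Hoxd11, did not overlap between the groups: -2.12, -2.74, -2.72 and -2.50 in wild type and -1.90, -1.85, -1.97 and -2.0 in mutant arrays. Its difference was 0.59 (SE 0.31, adjusted p = 0.717 by limma), and the SD was 0.29 in wild type and 0.07 in mutant arrays (n = 4). The Hoxa11 probe has 10 spots on each array, which were averaged, where those of Hoxb8 and Hoxd10 below have 1.

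HoxB held the only genes with an unadjusted p under 0.05. Hoxb9, a gene of the thoracic segments and ribs, lay at -0.57, -1.43, -1.42 and -1.35 in wild type and -0.18, 0.43, -0.40 and -0.96 in mutant arrays. Wild type 1 stood above the other 3 wild types and above mutant 4, so the groups overlapped, and the difference was 0.91 (95% interval 0.06 to 1.77, adjusted p = 0.717 by limma). Without the 3 arrays of highest principal component score it was 0.91 again. Hoxb8, a gene of the trunk that is also known for holding myeloid progenitors immature when forced on, lay at -1.86, -2.59, -2.12 and -2.15 in the 4 wild type and -1.62, -1.37 and -1.07 in the 3 usable mutant arrays. These did not overlap, nor did they with the flagged spot of mutant 4 kept, at -0.80. The difference was 0.83 (95% interval 0.02 to 1.64, adjusted p = 0.717 by limma). Hoxb4, known for expanding blood stem cells when forced on, lay at 1.68, 0.61, -0.04 and 0.30 in wild type and 1.67, 1.58, 0.60 and 0.39 in mutant arrays. Both genotypes were high in litter 1 apart from wild type 2, and the genotype difference was 0.42 (SE 0.47, adjusted p = 0.717 by limma). Hoxb13 had the lowest difference of the cluster, -0.05 (SE 0.49), with -4.17, -5.06, -3.67 and -3.18 in wild type and -4.39, -4.58, -4.24 and -3.04 in mutant arrays. The sign of that difference turned with the scaling of the arrays (0.22 with median scaling), and without the 3 arrays above it was -0.73. The SD was 0.80 in wild type and 0.69 in mutant arrays (n = 4).

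In HoxC, the signal of Hoxc10, a gene of the lumbar segments and the hindlimb, ran from -0.30 to 2.42. Its levels were 0.37, 2.42, 2.06 and 0.01 in wild type and -0.20, 0.22, -0.30 and 1.38 in mutant arrays. The 3 highest values were those of wild type 2, wild type 3 and mutant 4, and the difference of -0.94 (SE 0.60, adjusted p = 0.717 by limma) was -0.29 without them. With its flagged mutant 4 spot left out, Hoxc12 had the largest negative difference of the family, -1.09 (95% interval -2.18 to 0.01, adjusted p = 0.717 by limma). It lay at -0.65, 0.72, 0.46 and -1.03 in wild type and -1.44, -0.92 and -1.27 in the 3 usable mutant arrays, and here too the high values were wild type 2 and 3. Wild type 4 lay among the mutants, and without the 3 arrays the difference was -0.37. With the flagged spot of mutant 4 kept, at 0.68, the difference was -0.62 (adjusted p = 0.713 by limma), smaller than that of Hoxd11, and with median scaling it was -0.60. Hoxc4, a gene of the neck and upper trunk, had, level with Hoxc6, the largest positive difference of the cluster, 0.35 (SE 0.39, adjusted p = 0.717 by limma), with -0.52, -1.53, -0.42 and -0.20 in wild type and -0.76, -0.37, 0.14 and -0.30 in mutant arrays. Wild type 2 was the lowest of the 8 arrays, and without the 3 arrays the difference was 0.03.

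In HoxD, Hoxd8, a gene of the trunk mesoderm and of endothelium, had the largest positive difference, 0.75 (SE 0.47, adjusted p = 0.717 by limma). Its levels were 1.26, 0.05, -0.55 and -0.13 in wild type and 1.28, 1.41, 0.95 and -0.01 in mutant arrays, so wild type 1 stood with the mutants and mutant 4 with the wild types. Hoxd10, which acts with Hoxc10 in the lumbar spinal cord, did not overlap between the groups. It lay at -1.46, -1.30, -1.14 and -1.17 in wild type and -1.06, -0.72, -0.41 and -0.37 in mutant arrays, a difference of 0.63 (SE 0.32, adjusted p = 0.717 by limma). Hoxd11 had the largest negative difference, -1.01 (SE 0.60, adjusted p = 0.717 by limma), with -2.52, -0.62, -0.15 and -1.44 in wild type and -2.78, -2.76, -2.50 and -0.72 in mutant arrays. Its 3 highest values were those of wild type 2, wild type 3 and mutant 4, and without these arrays the difference was -0.70.

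Hoxa11, Hoxb8 and Hoxd10, named after their values were seen, were the 3 of 38 tested genes (7.89%) whose groups did not overlap, and all 3 lay higher in the mutants. Of all features 0.505% lay higher in the mutants with no overlap. With no overlap, the sign had to be the same in both litters and with any arrays left out, so only the sizes are informative. They were 0.56 in litter 1 and 0.63 in litter 2 for Hoxa11, 0.73 and 1.07 for Hoxb8, and 0.49 and 0.76 for Hoxd10. Without wild type 2, wild type 3 and mutant 4 the differences were 0.40, 0.65 and 0.59. Over the 39 genes the median difference was 0.15 without those arrays, with 27 genes above 0, while that of all features was -0.12.

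How a gene followed these 3 arrays varied within a cluster. Among 36 Hox genes measured with a passing probe on all 8 arrays, these 3 arrays were the 3 highest for 5 genes, Hoxa6, Hoxa13, Hoxc10, Hoxd1 and Hoxd11, and the 3 lowest for 6 genes, Hoxa3, Hoxa5, Hoxb2, Hoxb5, Hoxb6 and Hoxb7. Over all features the same held for 26.6% and 20.9%, both larger shares than among the Hox genes. Hoxa6, whose probe holds the Pbx-binding motif printed above, lay at -0.78, 0.92, 0.76 and -0.36 in wild type and -0.80, -0.71, -0.25 and 0.42 in mutant arrays, while its neighbour Hoxa5 lay at -0.84, -1.84, -1.75 and -1.26 and -0.96, -0.90, -1.05 and -1.77. The 3 arrays were thus at the top for one gene and at the bottom for the next. Of the 5 genes highest on these arrays 3 are posterior, and of the 6 lowest all are anterior or central with numbers from 2 to 7. These genes were picked by their values, and the second Hoxd11 probe did not have the pattern. A relation of the pattern with position was not tested.

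**Figure D3:**
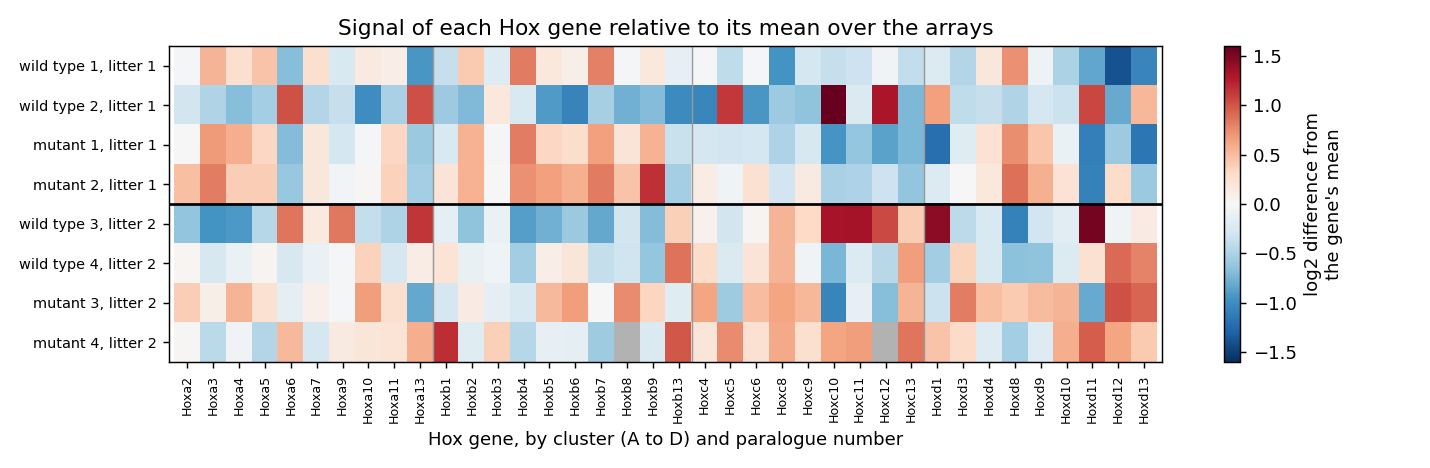
Log2 signal of the Hox genes on each array relative to the gene's mean over the arrays, with red above and blue below the mean, grey for a spot left out, and a black line between the litters. Wild type 2, wild type 3 and mutant 4 are red for Hoxa6, Hoxa13, Hoxc10 and Hoxd11 and blue for Hoxb7, and the litters part at Hoxc8 and Hoxc13.

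For Hoxa9, Hoxa13, Hoxb3 and Hoxd11 a second probe could be set against the first. The Hoxa13 probes moved together over the 8 arrays (r = 0.88, genotype differences -0.68 and -0.34). The Hoxd11 probes did not: r was 0.23, and the differences were -1.01 and 0.31. The second Hoxd11 probe lay at -2.28, -2.31, -1.81 and -1.03 in wild type and -2.67, -2.10, -0.64 and -0.78 in mutant arrays. It was therefore not high on wild type 2 or wild type 3, where the first probe was high. Hoxa9 gave differences of -0.10 and 0.52 (r = -0.11). The brightest probe of Hoxb3 gave 0.10 and its other probe 0.43, with r = -0.49; the former was nearly level over the arrays (-2.03 to -1.45), and the latter fell to -3.20 on wild type 2. In 2 of these 4 genes, Hoxa9 and Hoxd11, the sign of the genotype difference thus depended on the probe; each r is over 8 arrays and is a description.

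**Figure D4:**
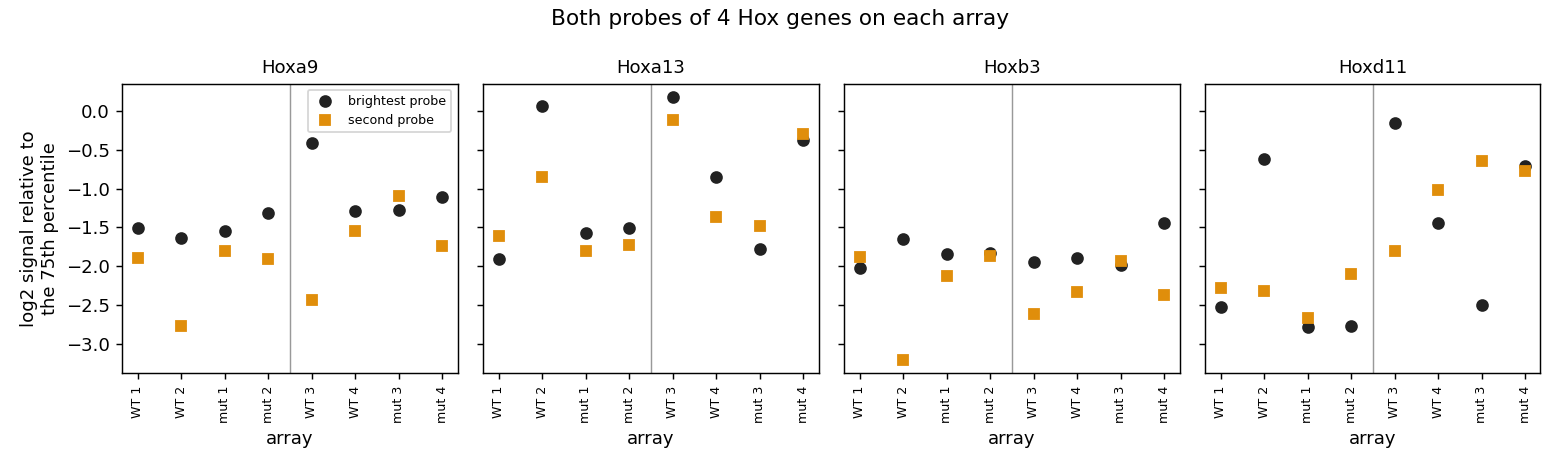
Log2 signal of both probes of Hoxa9, Hoxa13, Hoxb3 and Hoxd11 on each array (circles, the brightest probe used for the gene; squares, the second), with litter 1 left and litter 2 right of the grey line. For Hoxa13 the probes rise and fall together (r = 0.88), while for Hoxd11 they part by more than 1 log2 unit on wild type 2, wild type 3 and mutant 3.

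The litters were compared next, with genotype in the model. Each litter shared 1 slide and 1 scan, so litter, slide and scan cannot be told apart. Of the 38 Hox genes 2 were called, Hoxc8 and Hoxc13, both higher in litter 2 (5.26%), beside 1975 of all features (4.91%). The share among Hox genes was near that background. Unadjusted, 10 Hox genes (26.3%) and 10392 features (25.8%) had a p under 0.05. Hoxc8, which patterns the thorax and the motor neurons of the forelimb, lay at -3.92, -3.54, -3.46 and -3.27 in litter 1 and -2.42, -2.42, -2.33 and -2.36 in litter 2, listed as wild types then mutants. The litters did not overlap, with means of -3.55 ± 0.27 and -2.38 ± 0.05 (SD, n = 4), and the difference was 1.16 (SE 0.25, adjusted p = 0.0374 by limma). Hoxc13, a gene of the tail, nails and hair, lay at -3.57, -3.90, -3.90 and -3.81 in litter 1 and -2.77, -2.51, -2.64 and -2.33 in litter 2, again with no overlap. Its difference was 1.23 (SE 0.26, adjusted p = 0.0336 by limma), 1.09 among wild types and 1.37 among mutants. Both calls were lost under median scaling (0.69, adjusted p = 0.284 for Hoxc8 and 0.76, adjusted p = 0.237 for Hoxc13) and quantile normalization (0.57, adjusted p = 0.29 and 0.63, adjusted p = 0.231), and likewise with both normexp settings. The scaling moved all features: the median litter difference was 0.32 as scaled here, -0.15 with median scaling and 0.02 with quantile normalization. Of the 8 fits that each left out 1 array, Hoxc8 was called in that without wild type 2 alone and Hoxc13 in those without wild type 2 and wild type 3.

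Counted without a test, 22 of the 39 genes lay higher in litter 2 and 17 lower, with a median of 0.08, where 64% of all features lay higher with a median of 0.32. The litters did not overlap for 6 of the 38 tested genes (15.8%; 14% of all features): among them Hoxa9, Hoxc8, Hoxc11 and Hoxc13 were higher in litter 2 and Hoxb4 lower. Hoxb4 differed by -1.07 (SE 0.31, adjusted p = 0.0769 by limma), with -1.01 among wild types and -1.13 among mutants, and Hoxd8 by -0.94 (SE 0.36, adjusted p = 0.148 by limma). Among the posterior genes, Hoxd12 lay at -4.98, -4.40, -4.17 and -3.29 in litter 1 and -3.66, -2.68, -2.57 and -2.96 in litter 2, with 1 value of each litter crossing, and differed by 1.24 (SE 0.35, adjusted p = 0.077 by limma). Hoxb13 differed by 1.02 (adjusted p = 0.125 by limma), Hoxd13 by 1.14 (adjusted p = 0.134) and Hoxc11, read by the probe printed above, by 0.83 (adjusted p = 0.199). The sizes of the dim genes depended on the scaling and background correction: Hoxb13 was 0.55 with median scaling, 0.32 with quantile normalization, 0.20 with normexp and 0.083 with normexp and quantile normalization, and Hoxd12 was 0.77, 0.57, 0.53 and 0.39.

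By position, the litter difference was highest in the posterior genes. Its median was -0.03 over 8 anterior, -0.11 over 15 central and 0.50 over 16 posterior genes. In HoxA the 3 anterior genes had a median of -0.78 and the 4 posterior ones of 0.45. In HoxD the 2 central genes had -0.52 and the 5 posterior ones 0.97, while its 2 anterior genes, Hoxd1 and Hoxd3, lay at 0.49 and 0.53. HoxC, which has no anterior member, had medians of 0.55 (4 central) and 0.52 (5 posterior), and HoxB 0.02 (3 anterior), -0.13 (5 central) and 0.21 (2 posterior). The clusters therefore did not share 1 course from anterior to posterior. Over the 38 tested genes Spearman's rho between paralogue number and litter difference was 0.48, and between 0.43 and 0.52 under the other scalings and background corrections, with the floor or the outlier spots, and without the 3 arrays. The genes share the 8 arrays, and the level moved with both: rho was -0.58 between mean level and litter difference and -0.29 between paralogue number and mean level. The medians of all features show the same slope with brightness, 0.68 below a mean log2 level of -2, 0.32 between -2 and 0 and -0.45 above 0, against 0.83, 0.12 and -0.78 for the Hox genes in those bins. The part of brightness in the relation with paralogue number was not tested.

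**Figure D5:**
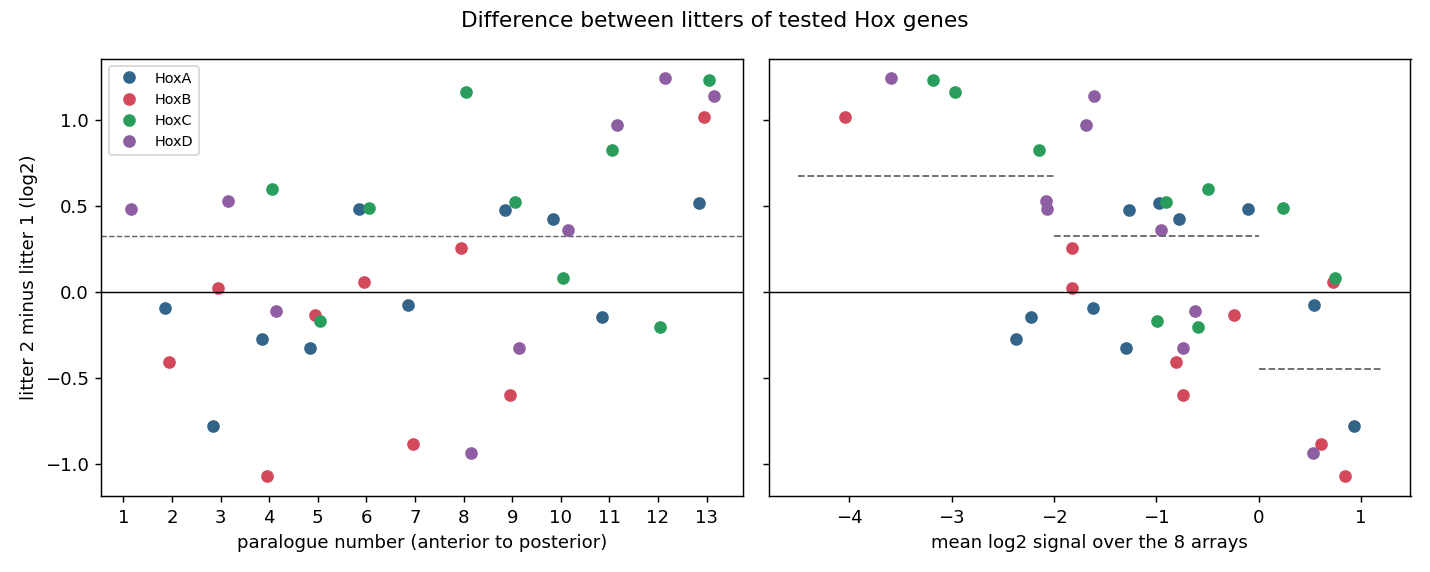
Litter 2 minus litter 1 difference in log2 signal of tested Hox genes against paralogue number (left) and against mean log2 signal over the 8 arrays (right), coloured by cluster. The dashed line on the left is the median of all features, 0.32, and those on the right are the medians of all features in 3 ranges of brightness (0.68, 0.32 and -0.45). Genes with numbers 11 to 13 lie mostly above 0.5, and the brightest genes mostly below 0.

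Markers of other tissues moved with the litters too. The median level of 6 liver markers was -2.72 to -2.02 in litter 1 and -1.16 to 1.30 in litter 2, with Afp, Apoa1 and Ttr called higher in litter 2. That of the 7 tested brain markers was -3.49 to -2.60 in litter 1 and -1.88 to -0.97 in litter 2, with 3 called higher, En2 and Dlx1 among them. Liver and brain had been removed before dissociation, and neither tissue's part in the Hox values was tested. Of 13 endothelial markers 5 (Cdh5, Kdr, Esam, Erg and Sox17) were called lower in litter 2, and the list's level was 4.26 to 5.13 in litter 1 and 3.35 to 4.41 in litter 2. For tissues in which posterior Hox genes are known to be active, limb bud markers (11 tested) ranged from -1.44 to -0.80 in litter 1 and -1.10 to -0.76 in litter 2, and kidney and urogenital markers (8 tested) from -1.78 to -1.24 and -1.03 to -0.36. In those 2 lists, and in 10 mesenchyme and 10 neural markers, 0 were called in either comparison.

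Whether the genotype difference itself differed between litters was tested with the interaction term. It called 0 of 38 Hox genes and 0 of all features (0%), with 0 Hox genes and 490 features at an unadjusted p under 0.05. The standard errors for Hox genes, 0.58 to 1.27, were larger than those of the genotype comparison. The largest term was that of Hoxc5, -0.55 in litter 1 against 0.36 in litter 2 (interaction 0.91, adjusted p = 1.00 by limma).

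Pairs of Hox genes of the same cluster varied together somewhat more than pairs of different clusters. Over the 8 arrays the median Pearson correlation was 0.35 in 163 pairs within a cluster, 0.41 in the 34 pairs of direct neighbours and 0.10 in 540 pairs of different clusters. After group and litter means were taken out, the medians were 0.26 within (147 pairs), 0.02 for neighbours (32 pairs) and 0.13 between clusters (483 pairs). Genes of the same paralogue group in different clusters had 0.23 before (40 pairs) and 0.30 after (37 pairs). All pairs share the same 8 arrays and their scaling, and the values are a description.

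The partners and regulators of Hox proteins gave no call in either comparison. Of 9 cofactors that bind DNA with Hox proteins, 8 lay higher in the mutants (median 0.39): Pbx2 differed by 0.39 (adjusted p = 0.717, limma). Pbx4 lay at the other end with -0.92 (adjusted p = 0.717). Of 12 tested inducers and neighbours, which include the retinoic acid receptors, the enzymes that make and break retinoic acid and the Cdx factors that switch on posterior Hox genes, 10 lay higher (median 0.24), with 0.43 for Rara and 0.43 for Rarg. Of 18 tested Polycomb and trithorax genes, which keep Hox clusters silent or active, 16 lay higher (median 0.41): Men1 differed by 0.27 (adjusted p = 0.744) and Eed by 0.36 (adjusted p = 0.717). Over all features 52.4% lay higher, and the median depended on brightness. It was 0.38 above a mean log2 level of 0, -0.11 between -2 and 0, and -0.26 below -2. The part of brightness in the counts of these 3 lists was not tested. Of 16 listed noncoding RNAs of the clusters 4 were tested and 0 called; Hoxa11os, the antisense RNA of Hoxa11, lay at 1.6, 1.47, 1.86 and 2.55 in wild type and 1.74, 1.74, 2.82 and 2.41 in mutant arrays, a difference of 0.31 (adjusted p = 0.731).

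In the authors' deposited table of the same comparison, 0 of 41 Hox rows (39 genes) had an adjusted p under 0.05, and the lowest was 0.624, where 60 of 50120 rows passed. The table's own log2 fold changes, mutant over wild type, were 1.18 for Hoxb9, 1.23 for Hoxb8, 0.85 for Hoxa11 and 0.89 for Hoxd10, and -0.74 and 0.57 for the first and second Hoxd11 probes in the authors' deposited table. Each of the 6 had an adjusted p of 0.624 there, and the 2 Hoxd11 probes differed in sign in it as they did above.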

How the data were processed

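The intensity of each spot is the scanner software's processed signal (Feature Extraction 10.7.3.1), background-subtracted by it per the file headers. From it log2 values were computed here and scaled by subtracting, on every array, the 75th percentile of its non-control spots; control spots and outlier flags were dropped, and repeated spots averaged. Arrays are one-colour (Cy3), made from 0.1 ug RNA. The number of arrays, 8, limits the precision.

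A probe had to be well above background on at least 4 of 8 arrays; the brightest probe stood for a gene. Of 55681 probes, 26762 were named by RefSeq accession, 4458 by symbol, 2044 by the files' own name, and 22417 had none. The files give mm9 coordinates; exon and UTR annotation was not used here.

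Tests were two-sided, with limma 3.58.1 (R 4.3.3, lmFit and eBayes) and Benjamini-Hochberg adjustment over all 40227 features at 0.05, and 3 values a group were required. The genotype fit held genotype alone; the litter fit added litter, and the interaction fit both and their product. The labels give the litter of each embryo, which is the pairing used for the replicate block; sample numbers mark nothing further. The genotype fit alone was tested on simulated data, with independent noise for each feature and none of the differences between arrays described above.

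Members and lists were chosen with earlier results of these data known. Per-array values are given for called Hox genes and, by cluster, for the member with the highest signal, the largest rise, the largest fall and the largest litter difference. Outside that rule, Hoxa5, Hoxa6, Hoxa11, Hoxb1, Hoxb8 and Hoxd10 were added after their values were seen. Of other lists, called genes or the 2 brightest are given, and Pbx4 was added for its difference.

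The authors' deposited table, from limma, per the submitters' processing notes, holds log2 expression per array, log2 fold changes, t statistics (a score) and p-values; its version and centring are not given in the sources used here. Counts, medians and ranges cover all members, but some single genes and 1 probe sequence are not reported here.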

Additional observations from a re-analysis of the deposited data

Results flagged for a closer look

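In 2 of 29 groups of 4 arrays, each the values of a named Hox gene in one genotype, 1 array lay far from the others. The gap of the outermost array to its nearest neighbour, divided by the range of the group, was above Dixon's 95% critical value for 4 samples. Chance alone passes it in about 1 in 20 groups.

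For Hoxb9 the array was wild type 1, at -0.57 against -1.43, -1.42 and -1.35 in the other wild types (0.911 of the range). For Hoxd11 it was mutant 4, at -0.72 against -2.78, -2.76 and -2.50 in the other mutants (0.861 of the range), and on the second Hoxd11 probe mutant 3, at -0.64, lay beside mutant 4, at -0.78.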

How the results depend on the processing

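Of the 38 Hox genes, 0 were called between genotypes under every alternative that was run but array weights (20). Over all features that count was 1 with quantile normalization, 39 with normexp, 5 with normexp and quantile normalization, 30 with a floor, 8 with no filter, 19253 with array weights, 52 from the authors' deposited values, and 0 without wild type 2, wild type 3 and mutant 4 and with either replicate block (litter, sample number); without single arrays it was 0 to 24. The median Hox difference was 0.61 with median scaling, 0.15 without those 3 arrays and 0.66 from the authors' values, and 0.24 to 0.44 without single arrays.

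Between litters the Hox count was 0 with median scaling, 1 with quantile normalization, each normexp setting and the authors' values, 14 with array weights, 7 without the 3 arrays (6 without wild type 2) and 0 to 6 without single arrays. Over all features it was 1011, 794 (quantile), 1187 (normexp), 17543 and 5844, and 4 to 4051 without single arrays (4 without mutant 2, 25 without mutant 1, 4051 without wild type 2). The median was -0.39 with median scaling, -0.19 from the authors' values and 0.05 to 0.26 without single arrays. The interaction count was 0 without any single array and 3 from the authors' values.

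Some differences turned sign. For genotype, Hoxb13 was 0.22 (median scaling and authors' values), 0.14 (quantile), 0.14 (normexp), 0.0946 (normexp, quantile), but -0.73 without the 3 arrays, and -0.39 to 0.23 without single arrays; Hoxc8 was -0.0886 with array weights and -0.0586 to 0.44; Hoxc13 was -0.29 with array weights, -0.41 without the 3 arrays and -0.26 to 0.26. For litter, Hoxc10 was -0.39 (median scaling and authors' values), -0.21 (array weights), -0.34 (without the 3 arrays) and -0.34 to 0.58; Hoxc12 was 0.28 with the outlier spot kept and -0.58 to 0.17. The causes were not tested.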
